A study of Mus musculus with 9 samples.

Results

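The abundant long intergenic noncoding RNAs (lincRNAs) of mouse epididymal fat are described here. They were chosen from the deposited count table as the rows annotated as lincRNA on an autosome with at least 1000 reads summed over the 9 libraries. The rule kept 29 genes of 1625 autosomal lincRNA rows, and of 28481 rows in all. Level was therefore used to choose them, and the sums are given as a description only. Just inside the limit stood Gm20186 with 1020 reads and 1300002E11Rik with 1009, and just outside it Gm7292 with 929 and Dubr with 914. Another 2 lincRNA rows on other chromosomes reached the limit and were left out by the rule. All 29 genes passed the filter on low counts.

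RNA was sequenced from epididymal white adipose tissue, a visceral fat depot attached to the epididymis, in 5 libraries labelled Control and 4 labelled UBKO. Every library, controls included, came from a mouse treated with CL316,243, an agonist of the beta3-adrenergic receptor that drives lipolysis and heat production in fat, so no untreated level is given. The series title names inactivation of Ctnnb1, the gene of beta-catenin, in adipocytes positive for the uncoupling protein Ucp1, and asks about browning of white fat. The sources used here give no strain, age, dose or duration, nor the allele and driver behind UBKO. Whole tissue was measured, so the deletion was read in a mixture of targeted and untargeted cells, and fewer cells of a type cannot be told apart from less RNA per cell. The labels do not say that the libraries came from separate animals, and p-values measure the spread between libraries.

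The libraries held 15308480 to 17632709 gene counts. Ctnnb1 had a mean of 311 ± 36.7 CPM (reads of a gene scaled to a common library size with TMM factors; SD, n = 5) in control libraries and 224 ± 56.7 CPM (n = 4) in the UBKO group, a log2 difference of -0.48 (SE 0.17, edgeR adjusted p = 0.0976). The library labelled UBKO replicate 3, at 307 CPM, lay within the control range of 276 to 360 CPM. Marker lists checked the tissue label. The adipocyte markers held 3.29% to 5.39% of counts in all 9 libraries. Epididymis markers held 3.09% and 2.75% of counts in Control replicates 1 and 2. Their share was 0.0354% in UBKO replicate 2 and at most 0.00267% in the other 6 libraries. Over the UBKO libraries Lcn2 averaged 100 ± 186 CPM (n = 4), and every other marker of this list at most 0.199 CPM. The share in UBKO replicate 2 therefore rested on Lcn2. Of 20 macrophage markers, 19 fell in UBKO, and their summed share was 0.144% to 0.414% in control and 0.0356% to 0.0504% in UBKO libraries. These libraries are therefore named beside the lincRNA values that move with them.

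LincRNAs are transcribed from their own loci, mostly between coding genes, and are annotated as noncoding. Some act in the nucleus as scaffolds: Neat1 holds together paraspeckles, bodies that retain RNA-binding proteins, and Malat1 sits in nuclear speckles beside splicing factors. Others act on RNA in the cytoplasm, such as Norad, which binds Pumilio proteins, and Cyrano, which directs decay of the microRNA miR-7. Still others host small nucleolar RNAs (snoRNAs) in their introns. RefSeq gives Norad as the symbol of 2900097C17Rik, and Cyrano as a synonym of Oip5os1. In the deposited annotation 23 of the 29, 2900097C17Rik among them, carry only a predicted-gene, RIKEN, expressed-sequence or clone name. The roles of most of these are not known.

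The sequences that define the best-known members were read from GENCODE M21 transcripts (build GRCm38, the mm10 build of the deposited coordinates) and from RefSeq GRCm38.p6. Malat1 and the longest Neat1 transcript end not in a poly(A) tail but in a triple helix formed by U-rich motifs and an A-rich tract. Both stretches are shown on the minus strand, 5′ to 3′, with the motifs and the tract in capitals; Malat1 is at chr19:5795977-5796072 and Neat1 at chr19:5824708-5824802.
Malat1: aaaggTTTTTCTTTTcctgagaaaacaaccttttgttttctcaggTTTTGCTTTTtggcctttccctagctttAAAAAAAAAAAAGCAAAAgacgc
Neat1: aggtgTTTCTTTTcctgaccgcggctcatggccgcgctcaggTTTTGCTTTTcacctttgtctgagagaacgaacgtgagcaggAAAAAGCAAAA
The Neat1 tract reaches the last base of its annotated transcript of 20771 bases, while the Malat1 tract lies 292 bases before the annotated end of 6983 bases. How libraries of this kit take up transcripts without a poly(A) tail was not tested.

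Norad carries repeated elements bound by Pumilio proteins. Its transcript of 4915 bases held 11 copies of TGTANATA, searched on the transcript strand, or 2.24 per kb. Of 68537 annotated transcripts of at least 1000 bases, 0.0336% held as many per kb. None of the other 28 members had a higher rate. The closest pair of elements is shown in capitals, at chr2:156390512-156390548 on the minus strand.
2900097C17Rik: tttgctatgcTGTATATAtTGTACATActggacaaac

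Cyrano is known for a single highly complementary site for miR-7. The site of Oip5os1 lies at chr2:119602136-119602161 on the plus strand, and its match to the seed of miR-7 is in capitals. The capitals of both mature miR-7 sequences mark the seed, bases 2 to 8, which they share. The transcript of 8300 bases held 2 seed matches.
Oip5os1: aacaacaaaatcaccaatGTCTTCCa
mmu-miR-7a-5p: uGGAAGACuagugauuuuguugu
mmu-miR-7b-5p: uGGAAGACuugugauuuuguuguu

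Gm10076 is shown because its counts cannot be read without its sequence. RefSeq lists it as a pseudogene, and 383 of its 384 bases aligned to Rpl41, a ribosomal protein mRNA, at 99.5% identity. Over the 78 bases of the Rpl41 coding sequence, spliced from the minus strand within chr10:128548387-128548960, the Gm10076 stretch at chr14:105681869-105681946 on the plus strand had 0 differences, so no base is in capitals.
Gm10076: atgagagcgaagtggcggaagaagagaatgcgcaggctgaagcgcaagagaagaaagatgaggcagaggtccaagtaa
Rpl41: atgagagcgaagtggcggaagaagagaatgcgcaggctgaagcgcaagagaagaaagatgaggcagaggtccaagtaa

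A few lincRNAs held most of the reads. The 29 genes summed to 196208 counts. Neat1 alone held 44.3% of these, and Neat1, 2900097C17Rik, Oip5os1 and Malat1 together 72.3%, while the median member had 1818. Per kilobase of merged exon the order of control levels differed, with Gm10076 at 146 CPM per kb, Gm36860 at 41.2, 2900097C17Rik at 26.5, Neat1 at 25.0, AW112010 at 17.8 and Malat1 at 15.3. Neat1, with its wide spread in control libraries, cannot be placed above or below 2900097C17Rik on this scale. AC160336.1 was lowest at 0.0683 CPM per kb, with an exon length dominated by a transcript of 93147 bases. The members lay on 16 autosomes, 5 of them on chromosome 19, and 11 had a single merged exon.

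**Figure D1:**
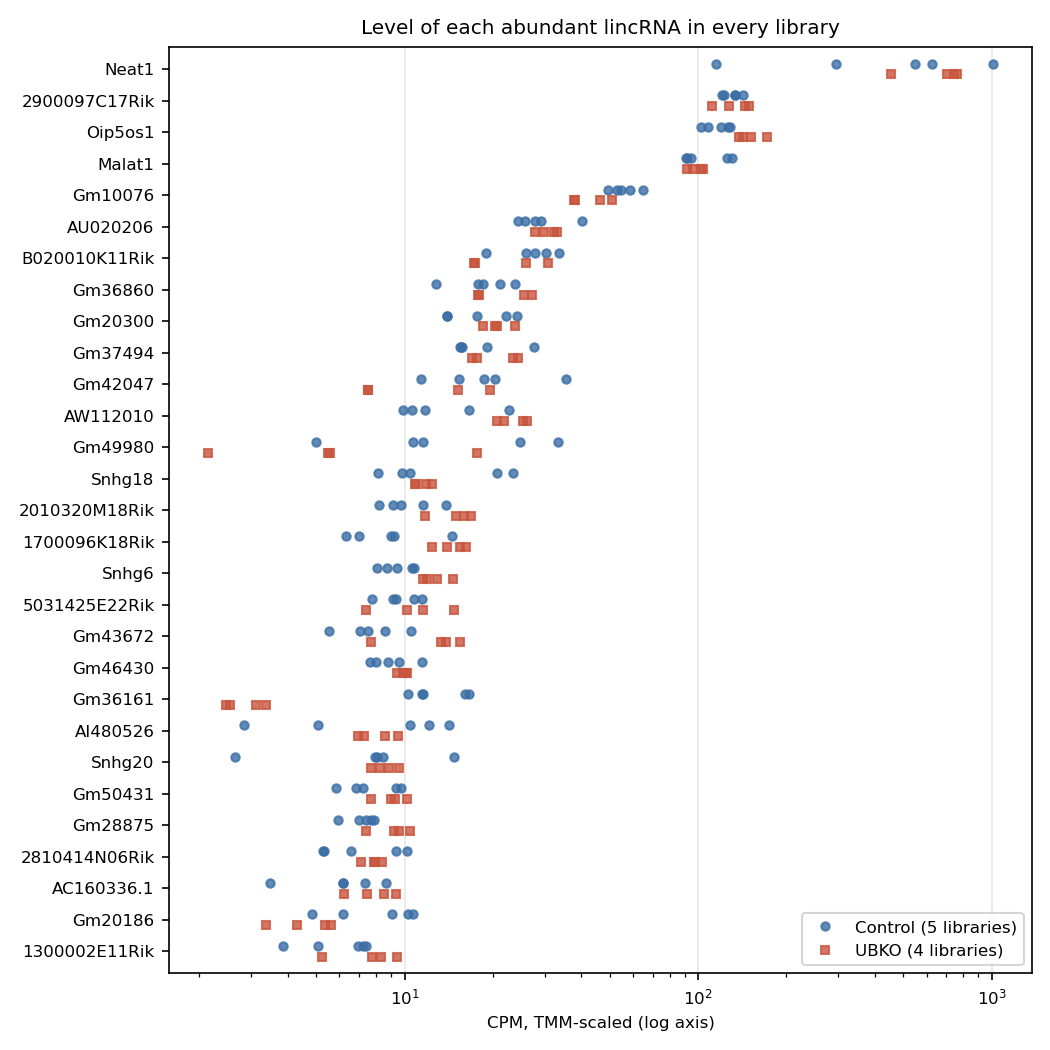
Level of each of the 29 abundant lincRNAs in every library, in TMM-scaled CPM on a log axis, ordered by summed count; circles are the 5 Control and squares the 4 UBKO libraries. Neat1 spreads from 115 to 1009 CPM over the controls, and Gm36161 is the member whose UBKO libraries lie far below every control.

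Between genotypes, 1 of the abundant lincRNAs passed the test. In the edgeR quasi-likelihood fit, adjusted by Benjamini and Hochberg's method over 16123 genes with a threshold of 0.05, 1 member of 29 was lower in UBKO (Gm36161) and 0 were higher, or 3.45% called. Over all tested genes 11.4% were called, 3.88% higher and 7.56% lower, and among 226 other lincRNAs 13 were, or 5.75%. At an unadjusted p under 0.05 stood 10 members (34.5%), 7 of them higher and 3 lower, against 28.5% of all genes, and 8 had an adjusted p between 0.05 and 0.1, 6 of them positive and 2 negative. DESeq2's Wald test called 6 members higher (20.7%) and 3 lower (10.3%), with 8.03% and 11% of all genes called in these directions. The CPM ranges of the genotypes did not overlap for 3 members, Oip5os1 and Snhg6 higher and Gm36161 lower, against a background of 15.5% of genes (6.41% higher and 9.11% lower). With 29 members, edgeR calls of 0 higher and 1 lower are too few to place the members below the background of all genes. DESeq2 called a larger share of members than of all genes higher. Without Control replicates 1 and 2, the libraries with epididymal transcripts, 0 members were higher and 1 lower, with 1.5% and 4.9% of genes called.

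The median log2 difference of the members was 0.14, with 20 positive and 9 negative, beside -0.0055 for all tested genes, -0.012 for coding genes and 0.14 for the other lincRNAs. The difference was smaller than 0.5 in size for 21 of the 29. The sign of the median depended on scaling. With library totals in place of TMM factors the members' median was -0.23 and that of all genes -0.39, so the members stayed above the median gene by a similar amount while the sign of the median turned. With that scaling 0 members were higher and 3 lower, against 1.46% and 27.8% of all genes. TMM factors ran from 0.997 to 1.33 in control and from 0.818 to 0.933 in UBKO libraries.

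**Figure D2:**
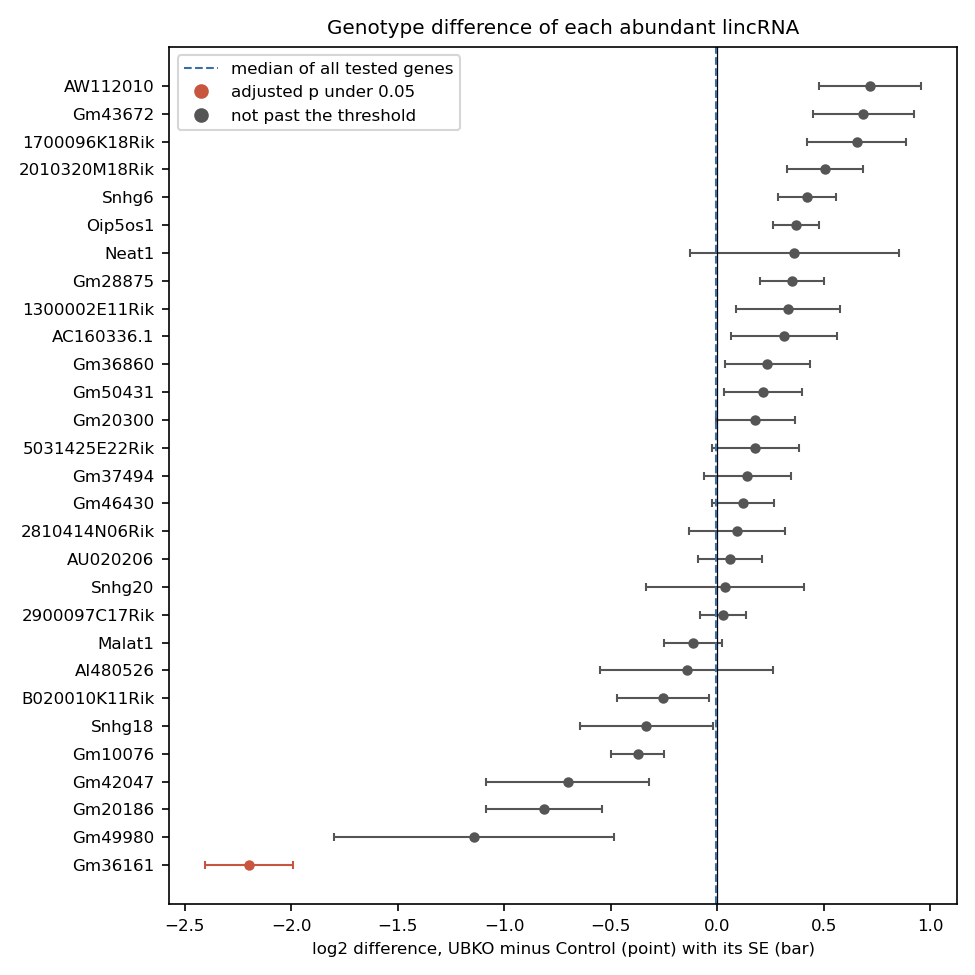
Log2 difference, UBKO minus Control, of each abundant lincRNA (points) with its SE (bars) from the edgeR fit on all genes; the dashed line is the median of all tested genes. Gm36161, at -2.20, is the single member past the threshold, and 21 members lie within 0.5 of zero.

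Among the nuclear scaffold RNAs, Neat1 was the most abundant member and among the most variable. It measured 624, 549, 1009, 294 and 115 CPM in Control replicates 1 to 5 and 761, 455, 742 and 707 CPM in UBKO replicates 1 to 4. Control replicates 4 and 5 were the low libraries, control replicate 3 the highest, and the UBKO values lay inside the control range. The log2 difference was 0.36 (SE 0.49, edgeR adjusted p = 0.680), and the coefficient of variation was 65.9% in control against 21.4% in UBKO libraries. Control replicates 1 and 2, which held epididymal transcripts, lay between the extremes of the controls.

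The deposited table splits the Neat1 locus into several rows. Gm27505, an annotated miscellaneous RNA (chr19:5844638-5844747) that lies within the 5′ part of Neat1, on its minus-strand locus chr19:5824708-5845478, was counted on its own. Its level was 39.5, 32.5, 46.7, 15.9 and 18.8 CPM in control and 40.4, 21.3, 24.3 and 22.1 CPM in UBKO libraries (log2 difference -0.18, adjusted p = 0.766). The count of Neat1 per count of Gm27505 was 15.8, 16.9, 21.6, 18.5 and 6.10 in control and 18.8, 21.4, 30.5 and 32.0 in UBKO libraries. Control replicate 5 had the lowest ratio and UBKO replicates 3 and 4 the highest, and the genotypes overlapped. The sources used here do not give how reads shared by both rows were assigned.

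**Figure D3:**
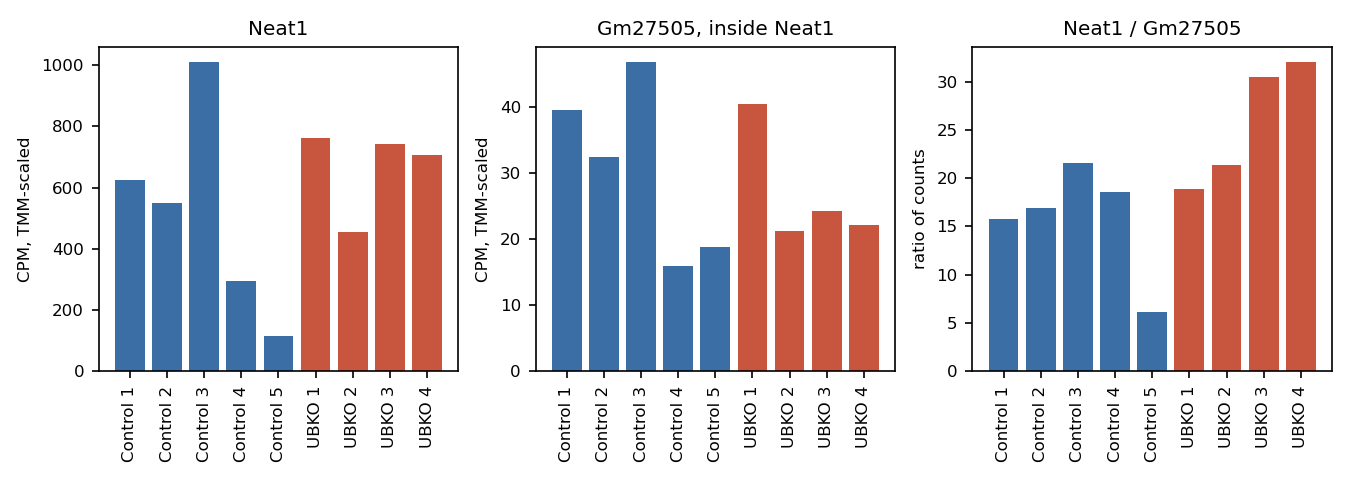
Neat1 and Gm27505, a row inside Neat1, in TMM-scaled CPM, and the ratio of their counts, one bar per library (blue Control, red UBKO). Neat1 is low in Control replicates 4 and 5, and in Control replicate 5 its count is 6.10 times that of Gm27505, against 15.8 to 32.0 times elsewhere.

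Malat1, next to Neat1 on chromosome 19, was steadier. It measured 130, 94.3, 126, 91.6 and 91.1 CPM in control and 104, 103, 91.5 and 96.1 CPM in UBKO libraries. The UBKO libraries lay within the control range, with a log2 difference of -0.11 (SE 0.14, adjusted p = 0.633). Of 25 genes for paraspeckle proteins, 0 were higher and 0 lower, with a median log2 difference of 0.019.

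Of the RNAs that act on other RNAs, 2900097C17Rik (Norad) varied least over the controls, with a coefficient of variation of 6.77%. Its level was 134, 133, 123, 142 and 120 CPM in control and 144, 127, 111 and 149 CPM in UBKO libraries. UBKO replicate 3 was the lowest library and UBKO replicates 1 and 4 the highest, with the controls between them (log2 difference 0.027, SE 0.11, adjusted p = 0.904). A near-copy, Gm7292, matched it at 99.2% over 2537 bases, with 6.0 ± 0.63 CPM in the controls and 6.39 ± 0.986 CPM in UBKO, so reads could be exchanged between them.

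Oip5os1 (Cyrano) measured 102, 108, 126, 128 and 120 CPM in control and 142, 152, 138 and 172 CPM in UBKO libraries. On this TMM scale every UBKO library lay above every control. Its log2 difference of 0.37 (SE 0.11) missed the threshold at an adjusted p of 0.0571 by edgeR, and with library totals for scaling it was -0.0079. Oip5, the coding gene 2010 bases away on the other strand, had a log2 difference of -0.80 (adjusted p = 0.0845). Of 9 tested genes on a list of conserved named noncoding RNAs, 2 of them members (2900097C17Rik and Oip5os1), 0 were called, with a median log2 difference of 0.049. Of 7 tested imprinted noncoding RNAs, such as H19 and Meg3, which held too few counts to be members, 0 were called, with a median of -0.15.

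Snhg6, Snhg18 and Snhg20 are annotated as snoRNA hosts, transcripts that span small RNAs that guide modification of other RNAs. The snoRNAs of Snhg6 and Snhg18 lie outside their merged exons. The small RNA rows within Snhg20, Gm26083 (annotated as a scaRNA) and the microRNA Mir6516, share 303 bases with its merged exons. The snoRNAs within Snhg6 and Snhg18 are shown with box C and box D in capitals, on the minus strand at chr1:9942463-9942549 and chr15:32241853-32241923. The mature arms of miR-6516 lie within Snhg20 on the plus strand, at chr11:117077370-117077391 and chr11:117077412-117077433, with their seeds in capitals.
Snord87: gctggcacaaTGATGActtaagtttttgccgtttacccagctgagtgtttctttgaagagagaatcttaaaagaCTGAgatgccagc
Snord123: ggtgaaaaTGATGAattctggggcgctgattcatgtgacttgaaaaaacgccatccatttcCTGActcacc
mmu-miR-6516-5p: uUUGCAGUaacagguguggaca
mmu-miR-6516-3p: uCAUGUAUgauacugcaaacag
These libraries do not measure the small RNAs: Snord87 and Snord123 had 0 to 3 counts in each library, and the row of Mir6516 held exactly 1 count in all 9. That constant value was shared by 229 rows of the table, 148 of them microRNAs, and was not read as expression.

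Snhg6 measured 9.43, 8.68, 10.6, 8.06 and 10.8 CPM in control and 12.9, 11.6, 14.6 and 11.9 CPM in UBKO libraries. On this TMM scale all UBKO libraries lay above the controls. The log2 difference was 0.42 (SE 0.14), with an edgeR adjusted p of 0.0733, and with library totals for scaling it was 0.032 (adjusted p = 0.893).

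Snhg20 ranged from 2.65 to 14.7 CPM over the controls and from 7.67 to 9.57 CPM over the UBKO libraries, a log2 difference of 0.037 (SE 0.37, adjusted p = 0.964). Of 19 tested snoRNA hosts on the list, these 3 included, 0 were called, and their median log2 difference was 0.0044. On a list of microRNA hosts, none of them a member, 1 of 6 tested genes was higher, Mir99ahg with a log2 difference of 0.74 (adjusted p = 0.0394).

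Snhg18 and Gm49980 were high in Control replicates 1 and 2, the libraries that held epididymal transcripts, and Gm42047 was high in Control replicate 1. Snhg18 measured 23.3 and 20.7 CPM in Control replicates 1 and 2, and 10.4, 8.12 and 9.78 CPM in the other controls. Its UBKO values were 10.9, 12.4, 11.8 and 10.8 CPM. With all libraries its log2 difference was -0.33 (SE 0.31, adjusted p = 0.529), and without Control replicates 1 and 2 it was 0.28.

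Gm49980 measured 24.8, 33.2, 10.7, 4.98 and 11.6 CPM in control and 2.15, 17.7, 5.59 and 5.49 CPM in UBKO libraries. Control replicates 1 and 2 were highest, and UBKO replicate 2, whose epididymis marker share rested on Lcn2, was the highest of its group. The log2 difference of -1.14 (SE 0.66) had an adjusted p of 0.288. It was -0.23 without Control replicates 1 and 2, -0.73 without Control replicate 2 alone and -1.95 without UBKO replicate 2.

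Gm42047 measured 35.6, 20.4, 18.6, 11.4 and 15.4 CPM in control and 15.2, 19.6, 7.53 and 7.51 CPM in UBKO libraries, with Control replicate 1 and UBKO replicate 2 the highest of their groups. Its log2 difference was -0.70 (SE 0.38, adjusted p = 0.264), and it was -0.38 without Control replicate 1 and -0.29 without Control replicates 1 and 2. The part of epididymal tissue in these 3 values was not tested.

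**Figure D4:**
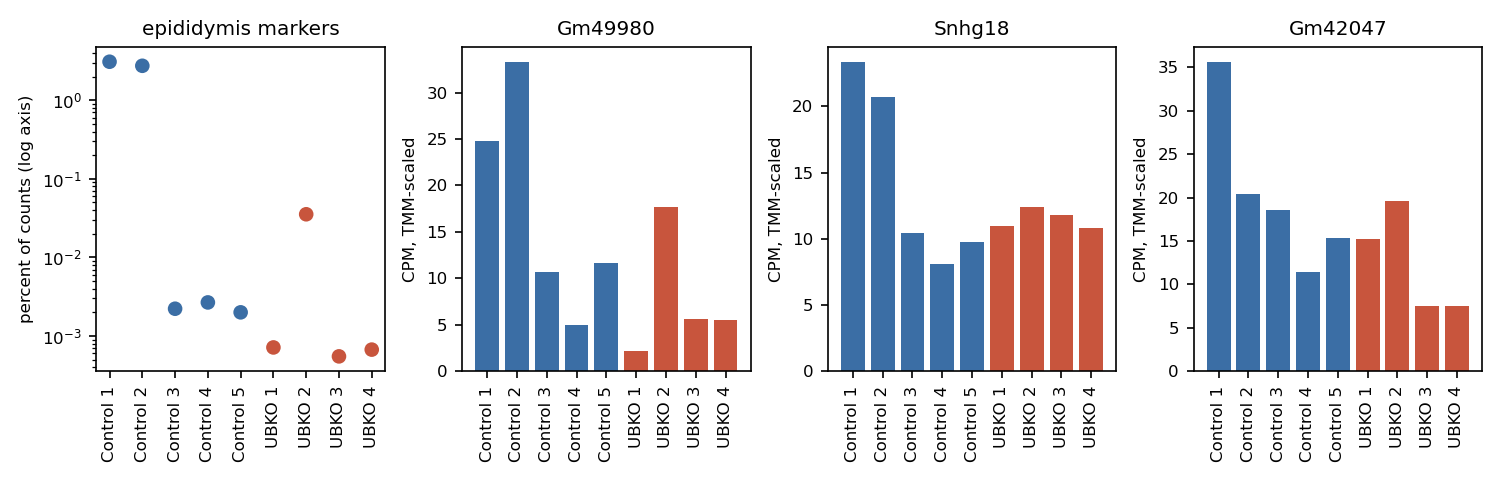
Share of counts held by epididymis markers (log axis) and the TMM-scaled CPM of Gm49980, Snhg18 and Gm42047 in each library (blue Control, red UBKO). Control replicates 1 and 2 are highest for the markers and for all 3 genes. UBKO replicate 2, whose marker share rests on Lcn2, is the highest UBKO library in each panel.

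Gm36161 was the member that fell. It lies on the plus strand at chr13:120010390-120018931 and has no known function in the annotation used. It measured 16.6, 11.4, 10.3, 11.6 and 16.1 CPM in control and 2.54, 2.46, 3.37 and 3.13 CPM in UBKO libraries. The highest UBKO library stood below the lowest control. The log2 difference was -2.20 (SE 0.21), with an edgeR adjusted p of 0.0013. The authors' deposited table gives a log2 ratio of FPKM of -2.59 with a q-value of 5.08e-07.

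Gm36161 has a near-copy beside it. Gm21188, annotated as protein-coding at chr13:120034605-120052194, matched its transcript at 95.7% over 1541 aligned bases. Its level was 15.1, 10.5, 7.60, 8.88 and 16.0 CPM in control and 2.28, 3.50, 2.58 and 2.36 CPM in UBKO libraries, and it fell as well (log2 difference -2.11, SE 0.27, adjusted p = 0.00228). Control replicates 1 and 5 were the highest libraries for both genes. They were also the highest for the summed macrophage markers, and for the share of counts of fibroblast and progenitor markers. Because reads can be split between such copies, the pair was not treated as independent measurements.

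In the surrounding window of 50000 bases on either side of Gm36161, Gm36079, the nearest coding gene at 7508 bases, was also lower (log2 difference -2.88, SE 0.73, adjusted p = 0.0348), on 91 counts in all. The pseudogenes of the same window were not called, at -0.77 for Gm21370, -0.51 for Gm20784 and -0.18 for Gm31544. Gm21370, on 117 counts in all, lies within the Gm36161 locus and shares 165 bases of its exons, so it is not a separate neighbour. Every UBKO library of Gm21370 lay below every control, as for 9.11% of all genes. The macrophage markers, 19 of 20 of them lower with a median log2 difference of -2.51, had a difference of similar size, with none of the defining markers at 0 in UBKO. Fibroblast and progenitor markers were also lower for 4 of 12, Col1a1, Pdgfra, Col3a1 and Lum, with a median log2 difference of -0.43 over the list. Their summed level was 2642 to 4223 CPM in control and 1635 to 2421 CPM in UBKO libraries, with Control replicates 4 and 5 highest. By share of counts Control replicates 1 and 5 were highest, at 0.433% and 0.474%. That share was 0.284% to 0.474% in control and 0.142% to 0.225% in UBKO libraries. The part of either list in the value of Gm36161 was not tested.

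**Figure D5:**
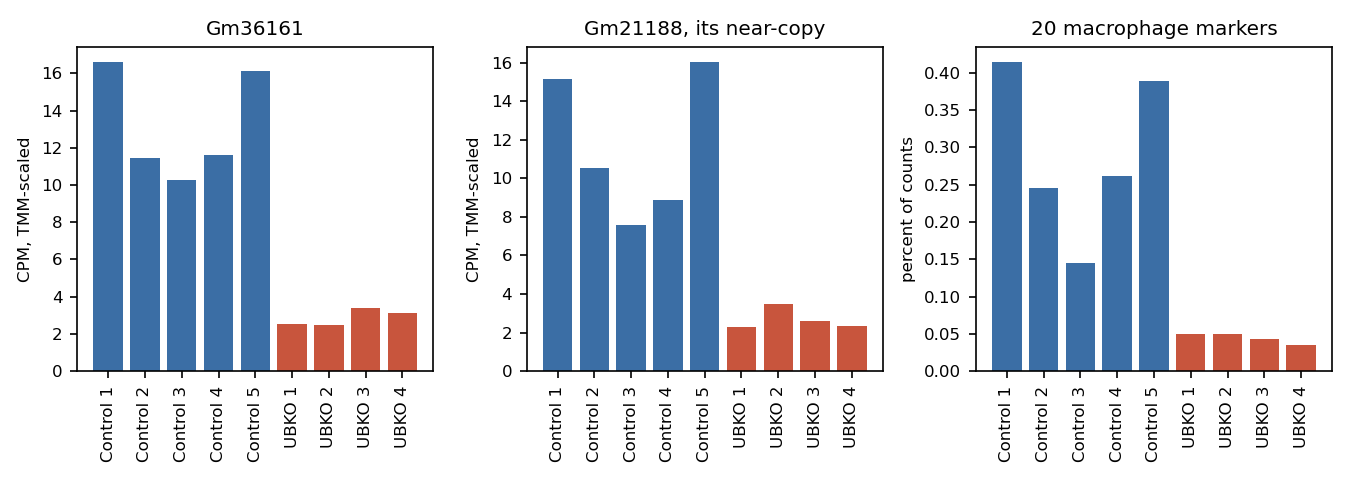
Gm36161 and its near-copy Gm21188 in TMM-scaled CPM, and the summed share of counts of 20 macrophage markers, one bar per library (blue Control, red UBKO). In each panel the 4 UBKO libraries lie below all 5 controls, and Control replicates 1 and 5 are highest.

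Promoters, from 250 bases before to 50 after the start in RefSeq, were found for 14 of the 29 members. The promoter of Gm36161 is shown as that of the member that fell, at chr13:120010092-120010391 on the plus strand. Its letters held none of the motifs searched on both strands. These were the cyclic AMP response element TGACGTCA, the E-box CACGTG, the TCF motif CTTTGAT, the PU.1 motif GAGGAAGT, the TATA motif TATAAA and CCAAT. Only exact letters were searched, so near matches, such as gaggaaat in this promoter to the PU.1 motif, were not counted.
Gm36161: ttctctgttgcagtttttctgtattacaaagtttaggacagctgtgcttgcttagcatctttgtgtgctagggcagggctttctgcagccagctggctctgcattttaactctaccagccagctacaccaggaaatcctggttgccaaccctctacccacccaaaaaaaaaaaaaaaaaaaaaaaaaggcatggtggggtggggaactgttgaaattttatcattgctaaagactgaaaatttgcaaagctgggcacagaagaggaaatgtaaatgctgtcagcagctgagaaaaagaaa
The cyclic AMP response element was found in 1 of the 14 member promoters, that of 1300002E11Rik, against 1.79% of 32851 promoters. CCAAT was found in 7 of 14 against 37.4% of all promoters, TATAAA in 1 against 13.6%, and the E-box, the TCF motif and the PU.1 motif in 0 against 7.15%, 3.73% and 3.2%. The median GC content of the member promoters was 57.2%, beside 52.7% over all promoters. A match is a description of letters and not a bound site.

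AW112010, an RNA known from immune cells in mouse, had a difference of opposite sign from the macrophage markers. It measured 9.85, 10.6, 22.7, 11.7 and 16.5 CPM in control and 20.6, 21.8, 25.4 and 26.1 CPM in UBKO libraries. Only Control replicate 3 reached into the UBKO range. Its log2 difference was 0.72 (SE 0.24, adjusted p = 0.0833), while that of Ms4a8a, its nearest coding gene at 11663 bases, was -2.13 (SE 0.30, adjusted p = 0.00303). Of 3 tested genes on a list of immune noncoding RNAs, 0 were called.

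For 3 members without a known role, positive differences missed the threshold. 1700096K18Rik measured 6.32, 6.99, 14.5, 9.20 and 9.03 CPM in control and 16.2, 12.4, 15.4 and 13.9 CPM in UBKO libraries, a log2 difference of 0.65 (SE 0.23, adjusted p = 0.0983). Gm43672 measured 5.51, 8.59, 10.5, 7.49 and 7.05 CPM in control and 13.9, 7.70, 15.5 and 13.4 CPM in UBKO libraries (log2 difference 0.69, SE 0.24, adjusted p = 0.0916). In the first, Control replicate 3 alone overlapped the UBKO libraries, and in the second UBKO replicate 2 alone lay among the controls.

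2010320M18Rik measured 9.14, 8.19, 13.8, 9.70 and 11.6 CPM in control and 15.0, 11.7, 16.9 and 16.0 CPM in UBKO libraries, with a log2 difference of 0.51 (SE 0.18, adjusted p = 0.0964). Control replicate 3 was the highest control for these 3 genes and for AW112010. Without that library, these 4 and Oip5os1 were called higher and Gm20186 and Gm36161 lower, which makes 5 higher (17.2%) and 2 lower members (6.9%), against 6.01% and 9.41% of all genes in that fit. Without Control replicates 1 and 2 instead, 0 members were called higher. There the log2 differences of AW112010, 1700096K18Rik, 2010320M18Rik and Oip5os1 were smaller than with all libraries, at 0.46, 0.40, 0.33 and 0.26.

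Gm20186 measured 9.05, 6.19, 4.85, 10.7 and 10.3 CPM in control and 3.39, 5.63, 5.38 and 4.31 CPM in UBKO libraries. The groups overlapped through Control replicate 3, and the log2 difference of -0.81 (SE 0.27) had an adjusted p of 0.0836. A predicted gene, Gm12840, matched Gm20186 at 97.0% over 463 bases.

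For Gm10076 and B020010K11Rik the counts are uncertain, since their transcripts match abundant mRNAs. Gm10076 measured 53.0, 49.5, 54.5, 64.9 and 58.7 CPM in control and 46.4, 37.7, 50.8 and 38.2 CPM in UBKO libraries (log2 difference -0.37, SE 0.12, adjusted p = 0.0776). The groups overlapped at UBKO replicate 3. Rpl41, the mRNA it copies, summed to 40018 counts and had a log2 difference of 0.037 (adjusted p = 0.893).

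B020010K11Rik aligned to Tuba1b, an alpha-tubulin mRNA of 81074 counts, at 98.7% over 1588 bases on the opposite strand. Its level was 33.6, 30.3, 18.9, 27.8 and 25.9 CPM in control and 17.3, 17.3, 26.0 and 30.9 CPM in UBKO libraries (log2 difference -0.26, adjusted p = 0.480). The values overlapped. Tuba1b had a log2 difference of 0.30 (adjusted p = 0.328) and Tuba1a of -0.53 (adjusted p = 0.147).

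In all, 9 of the 29 members had a copy elsewhere of at least 95% identity over at least 200 bases. Some members share exon sequence with another row at the same place, among them AC160336.1 and Gm36161, which also have such copies. The rows that overlap the exons of Gm50431 held 354% as many counts as it did, through the coding gene Nt5c2. For AI480526 the figure was 105%, for AC160336.1 71.6%, for 1300002E11Rik 13.8% and for Gm36161 8.5%. The labels do not say whether library strand was kept, so reads from either strand cannot be told apart at these loci.

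The remaining abundant members showed overlapping genotypes. AU020206 ranged from 24.4 to 40.4 CPM in control and from 27.9 to 33.1 CPM in UBKO libraries, a log2 difference of 0.061 (SE 0.15, adjusted p = 0.833). Gm36860 ranged from 12.8 to 23.8 CPM in control and from 17.7 to 27.2 CPM in UBKO libraries (log2 difference 0.23, adjusted p = 0.483). Gm20300 and Gm37494 had log2 differences of 0.18 and 0.14, with adjusted p-values of 0.570 and 0.700.

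Less abundant members also overlapped between genotypes. Gm28875 measured 7.68, 5.94, 7.90, 6.99 and 7.39 CPM in control and 10.5, 7.38, 9.18 and 9.59 CPM in UBKO libraries, with UBKO replicate 2 alone inside the control range (log2 difference 0.35, SE 0.15, adjusted p = 0.162). AI480526 ranged from 2.83 to 14.2 CPM in control and from 6.96 to 9.51 CPM in UBKO libraries, with a log2 difference of -0.14 that became 0.40 without Control replicates 1 and 2. For 1300002E11Rik, AC160336.1, Gm50431, 5031425E22Rik, Gm46430 and 2810414N06Rik the log2 differences were 0.33, 0.31, 0.21, 0.18, 0.12 and 0.093, with adjusted p-values between 0.408 and 0.83. Gm46430 shares sequence with E430024I08Rik, at 97.2% over 469 bases.

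Position beside coding genes was not used to choose the members. Of the 29 nearest coding genes 25 could be tested, at a median distance of 3678 bases over all members. Of these, 1 was higher in UBKO, Hint3 beside Gm20300 (log2 difference 0.47, adjusted p = 0.0396), and 3 were lower: Frmd8 beside Neat1 (-0.39, adjusted p = 0.0176), Ms4a8a beside AW112010 and Gm36079 beside Gm36161. Of 13754 coding genes tested, 512 were higher and 1149 lower, or 12.1% called. Calls of 1 and 3 among 25 are too few to set the neighbours apart from coding genes at large. The sign of lincRNA and neighbour was the same in 14 of the 25 pairs. No count over other pairs of genes was made to set beside it. A neighbour on the opposite strand within 2000 bases was found for 9 members.

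As a share of all gene counts, the members held 0.174%, 0.145%, 0.177%, 0.0970% and 0.0907% in control and 0.131%, 0.110%, 0.122% and 0.121% in UBKO libraries. The UBKO libraries lay inside the control range, and the means of 0.137% ± 0.0412 and 0.121% ± 0.00852 gave p = 0.460 (SD, n = 5 and 4, exact two-sided permutation test). Without Neat1 the means were 0.0796% ± 0.0101 and 0.0638% ± 0.00322 (exact permutation p = 0.0159). That p is the smallest this test can give with 5 and 4 libraries. The groups were just apart, with Control replicate 4 at 0.06771% and UBKO replicate 2 at 0.06765%. This share has the library total as its denominator, and mitochondrial counts made up 8.78% to 17.8% of it in control and 20.1% to 25.4% in UBKO libraries. With mitochondrial counts taken out, the means were 0.158% and 0.157% with Neat1 (exact permutation p = 0.984) and 0.0918% ± 0.00851 and 0.0829% ± 0.00443 without it (exact permutation p = 0.0952).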

How the data were processed

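The authors deposited whole-number read counts and FPKM per gene and library, together with the log2 ratio, p-value and q-value of their own UBKO comparison, whose test the sources used here do not give. HISAT2, Cuffdiff, SAMtools 1.3.1 and the build mm10 are listed, without roles, in the submitters' processing notes. FPKM in the deposited table used a length equal to the sum of all distinct annotated exons for 97.3% of 16163 genes (within 0.1%), which is at least 1.5 times the merged exons for 6 members, so levels per length here use merged exons. Of the gene IDs, 99.65% were in GENCODE M21. Groups and replicate numbers came from sample titles, and 0 per-sample columns were left unused.

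From the deposited counts, genotypes were compared in R 4.3.3 with edgeR 4.0.16: filterByExpr by group, TMM, glmQLFit and glmQLFTest on genotype, two-sided, with Benjamini-Hochberg adjustment over 16123 genes at 0.05. An SE is the log2 difference divided by the square root of its F statistic. Tested on simulated counts for 15796 genes, this comparison recovered 42% of 2-fold and 89% of 4-fold changes, with 3 false calls. The changed genes were drawn from the better-counted ones only. Apart from these changes all simulated libraries had the same mean profile, without uneven epididymal content, so the figures are not rates for these libraries. Copies were found with BLAST 2.17.0+, and permutation tests used scipy 1.17.1. No replicates were duplicates (lowest chi-square per degree of freedom 17). Depth was 15308480 to 17632709 counts per library, and the spread between replicates exceeded counting error.

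The members and all lists were chosen with earlier results of these data known. Named were the 12 members with the largest summed counts, members past the threshold, members on a list of noncoding RNAs, and those beside the limit. The other members, the neighbours, the copies and the overlapping rows were added after their values were seen. Alternatives were DESeq2 1.42.0 size factors and its Wald test, library totals, no filter, libraries left out, the replicate block, other limits of summed counts, limma 3.58.1 on log2(FPKM + 1) and log2(FPKM + 0.1), and the authors' deposited comparison.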

Additional observations from a re-analysis of the deposited data

How the results depend on the processing

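Gm36161 kept its direction and its call under every alternative fit. Leaving out each library in turn gave 0 to 5 members higher and 1 to 2 lower, a median log2 difference of 0.10 to 0.22, and a difference in summed share of -0.0274 to -0.00579 percentage points. Without Control replicate 3 the counts were 5 higher and 2 lower, 17.2% and 6.9% of members against 6.01% and 9.41% of genes. Without UBKO replicate 2 they were 1 higher (Gm43672) and 1 lower, 3.45% each against 3.45% and 6.99% of genes. DESeq2's Wald test called 6 higher and 3 lower, 20.7% and 10.3% against 8.03% and 11%. Library totals, limma on log2(FPKM + 1) and limma on log2(FPKM + 0.1) each called 3 lower, 10.3%, 11.1% and 11.1% of the members tested against 27.8%, 31.2% and 32.1% of genes, with medians of -0.23, -0.13 and -0.19, and the authors' deposited comparison had a median of -0.20. The median of all genes was -0.39, -0.26, -0.33 and -0.34 in these comparisons, and library totals called 236 genes higher and 4482 lower. A limit of 500 summed counts gave 6 higher and 2 lower of 63 genes, 9.52% and 3.17% against 3.88% and 7.56%. A limit of 2000 gave 0 higher and 0 lower of 14, with a median of 0.044, and leaves Gm36161 out. Without Neat1 the difference in summed share was -0.0159 percentage points and passed the test, at the smallest p this test can give. With mitochondrial counts also taken out of the denominator, an alternative chosen after seeing the data, it was -0.00886 and did not (exact permutation p = 0.0952).

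The epididymis marker share of UBKO replicate 2 rests on Lcn2, and Ctnnb1 of UBKO replicate 3 lies in the control range. Fits without Control replicates 1 and 2 together with UBKO replicate 2, or with UBKO replicate 3, were chosen after seeing the data. They called 1 higher (Gm43672) and 0 higher, and 1 lower each, against 2.63% and 0.418% of genes higher and 5.59% and 2.28% lower. The replicate numbers were not taken to pair the samples. Same-numbered libraries correlated at -0.179, 0.54, 0.0946 and 0.164 in their deviations from group means. The 0.54 was the highest value of any control and UBKO pair, so these correlations cannot decide whether samples were paired. With the replicate block 0 members were higher and 1 lower, and of all genes 191 were higher and 556 lower, against 626 and 1219 without it.

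Log2 differences of single members, none of them called, changed sign as follows. With library totals they were Neat1 -0.035, 2900097C17Rik -0.36, Oip5os1 -0.0079, AU020206 -0.32, Gm36860 -0.14, Gm20300 -0.23, Gm37494 -0.21, 5031425E22Rik -0.23, Gm46430 -0.25, Snhg20 -0.40, Gm50431 -0.15, Gm28875 -0.041, 2810414N06Rik -0.27, AC160336.1 -0.049 and 1300002E11Rik -0.072. In the authors' deposited comparison they were Neat1 -0.0016, 2900097C17Rik -0.33, AU020206 -0.30, Gm36860 -0.12, Gm20300 -0.20, Gm37494 -0.19, 5031425E22Rik -0.20, Gm46430 -0.23, Snhg20 -0.37, Gm50431 -0.13, Gm28875 -0.014, 2810414N06Rik -0.25, AC160336.1 -0.027 and 1300002E11Rik -0.044. With limma on log2(FPKM + 0.1) they were 2900097C17Rik -0.33, AU020206 -0.27, Gm36860 -0.12, Gm20300 -0.14, Gm37494 -0.18, 5031425E22Rik -0.19, Gm46430 -0.20, Snhg20 -0.14, Gm50431 -0.12, Gm28875 -0.0096 and 2810414N06Rik -0.21, and on log2(FPKM + 1) 2900097C17Rik -0.32, AU020206 -0.25, Gm36860 -0.12, Gm20300 -0.13, Gm37494 -0.10, 5031425E22Rik -0.12, Gm46430 -0.12, Snhg20 -0.14, Gm50431 -0.10, Gm28875 -0.0088 and 2810414N06Rik -0.18. Without Control replicates 1 and 2 they were AU020206 -0.037, Gm37494 -0.022, Snhg18 0.28, Gm46430 -0.019, AI480526 0.40 and 2810414N06Rik -0.16. The replicate block gave 2900097C17Rik -0.0084. Over the fits that leave out 1 library or the 3 named above, values ran for 2810414N06Rik from -0.17 to 0.24, 2900097C17Rik from -0.029 to 0.14, AI480526 from -0.35 to 0.49, AU020206 from -0.050 to 0.22, B020010K11Rik from -0.43 to 0.045, Gm37494 from -0.088 to 0.33, Gm46430 from -0.0042 to 0.22, Snhg18 from -0.46 to 0.29, Snhg20 from -0.17 to 0.49. The cause of these changes was not tested. The SE did not follow depth alone: Neat1, with 86995 counts, had an SE of 0.49, and Gm28875, with 1193 counts, 0.15.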
